A study of Mus musculus with 12 samples.

Results

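The extracellular matrix is the protein scaffold around and between the cells of the kidney. Fibrillar collagens are made by fibroblasts and related stromal cells and form the interstitial fibrils that accumulate in renal scarring, while type IV collagen, laminins and nidogens form the basement membranes under tubules, glomerular capillaries and vessels. Small leucine-rich proteoglycans such as decorin and biglycan bind collagen fibrils, elastic fibre proteins give stretch, lysyl oxidases cross-link collagen and elastin, and matricellular proteins such as tenascin-C appear where tissue is being remodelled. The 50 genes described here were listed by name, and the list was drawn up with results of these arrays known. Of these, 48 were measured by a probe set that the annotation assigns to 1 gene symbol, out of 22180 such genes and 34472 probe sets on the array. Fbn1 (fibrillin) was not in the annotation table, and Loxl2 was represented only by probe sets shared with another gene, so neither is reported.

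Kidney RNA from 12 female mice aged 8 to 12 weeks was profiled, each mouse on its own GeneChip Mouse Gene 2.0 ST array, with 3 mice in a group. The groups were HDAC2-/- kidneys at 4 h after 28 min of warm ischemia, WT kidneys at 4 h after 28 min of warm ischemia, HDAC2-/- kidneys without ischemia and WT kidneys without ischemia. HDAC2-/- denotes mice with a floxed Hdac2 gene and a tamoxifen-activated Cre recombinase (CreERT2), and WT denotes mice that the labels describe as wild type ERT2cre and the study's text as WT B6. All mice were given tamoxifen at 100 mg/kg for 5 days and then 7 days of recovery, so that tamoxifen was common to all groups, and per the methods the Cre was expressed throughout the body. Ischemic mice also had the other kidney removed, whereas a sham procedure is described for none of the unischemic mice, so ischemia cannot be told apart from anesthesia, surgery and nephrectomy. The labels name the tissue as renal cortex and the study's text as whole kidney.

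Values are log2 expression values after robust multiarray average (RMA) normalisation, and a difference of 1 is a 2-fold change. A gene was called where limma's moderated test gave a Benjamini-Hochberg adjusted p under 0.05 over all 34472 probe sets. Below, replicates 1 to 3 of a group are given in that order, differences carry their standard error, and n was 3 mice per group throughout.

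Array medians lay between 5.62 and 5.76, and arrays of 1 group correlated with each other at 0.983 to 0.994. Proximal tubule marker genes averaged 12.62 to 12.97 on all 12 arrays. The probe set for Hdac2 averaged 8.13 in ischemic HDAC2-/-, 8.01 in ischemic WT, 7.99 in HDAC2-/- and 7.92 in WT kidneys, and whether its probes lie in the deleted part is not known here, so it does not check the genotype. Ischemic WT replicate 1 stood apart. Its mean over 9 fat cell markers was 7.03, against 6.12 and 6.68 in the other ischemic WT arrays and 5.83 to 6.20 on the remaining 9 arrays. Its mean over 8 markers of the renal capsule, adventitia and mesothelium was 6.97, against 6.48 and 6.64 in the other ischemic WT arrays and 6.32 to 6.62 elsewhere. Several results that change without this array are given both ways, but a result given once may change without it too. For example, the Lox difference in WT kidneys was 0.58 without it, where it had been 0.96. Col6a2 was then called in WT kidneys (-0.88, adjusted p = 0.0189). Col1a1 was then called in HDAC2-/- kidneys (-0.91, adjusted p = 0.0308). In whole tissue, fewer cells of a type and less RNA per cell cannot be told apart.

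At 4 h after ischemia the matrix genes moved in both directions. In HDAC2-/- kidneys 5 of 48 members were called, beside 4.91% of all probe sets, with 4 up (8.33%, beside 2.94%) and 1 down (2.08%, beside 1.97%). In WT kidneys 12 were called, beside 13.7% of all probe sets, with 4 up (8.33%, beside 6.55%) and 8 down (16.7%, beside 7.17%). Over both genotypes together 17 were called, beside 18.4%, with 6 up (12.5%, beside 8.52%) and 11 down (22.9%, beside 9.92%). The genes that rose were a basement membrane laminin chain (Lamc1) and non-fibrillar collagens (Col8a1, Col12a1) in both genotypes, with Lox in HDAC2-/- kidneys and Tnc in WT kidneys. Those that fell were Fbln5 in both genotypes and, in WT kidneys, the fibrillar collagens Col1a2 and Col5a1, the fibril-associated Col14a1, Col15a1 and the small proteoglycans Bgn, Ogn and Fmod. The 4 genes called in both responses, Col8a1, Col12a1, Lamc1 and Fbln5, made up 80% of the HDAC2-/- calls and 33.3% of the WT calls, and each moved the same way in both genotypes. The median difference over all 48 members was -0.09 in HDAC2-/- kidneys and -0.13 in WT kidneys, beside -0.007 and -0.020 over all probe sets. The ischemic and unischemic arrays did not overlap for 15 members in HDAC2-/- kidneys (31.2%, beside 20.1% of all probe sets), with the ischemic arrays above for 6 (beside 9.91%) and below for 9 (beside 10.2%), and for 14 in WT kidneys (29.2%, beside 28.3%), above for 6 (beside 13.0%) and below for 8 (beside 15.3%).

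**Figure D1:**
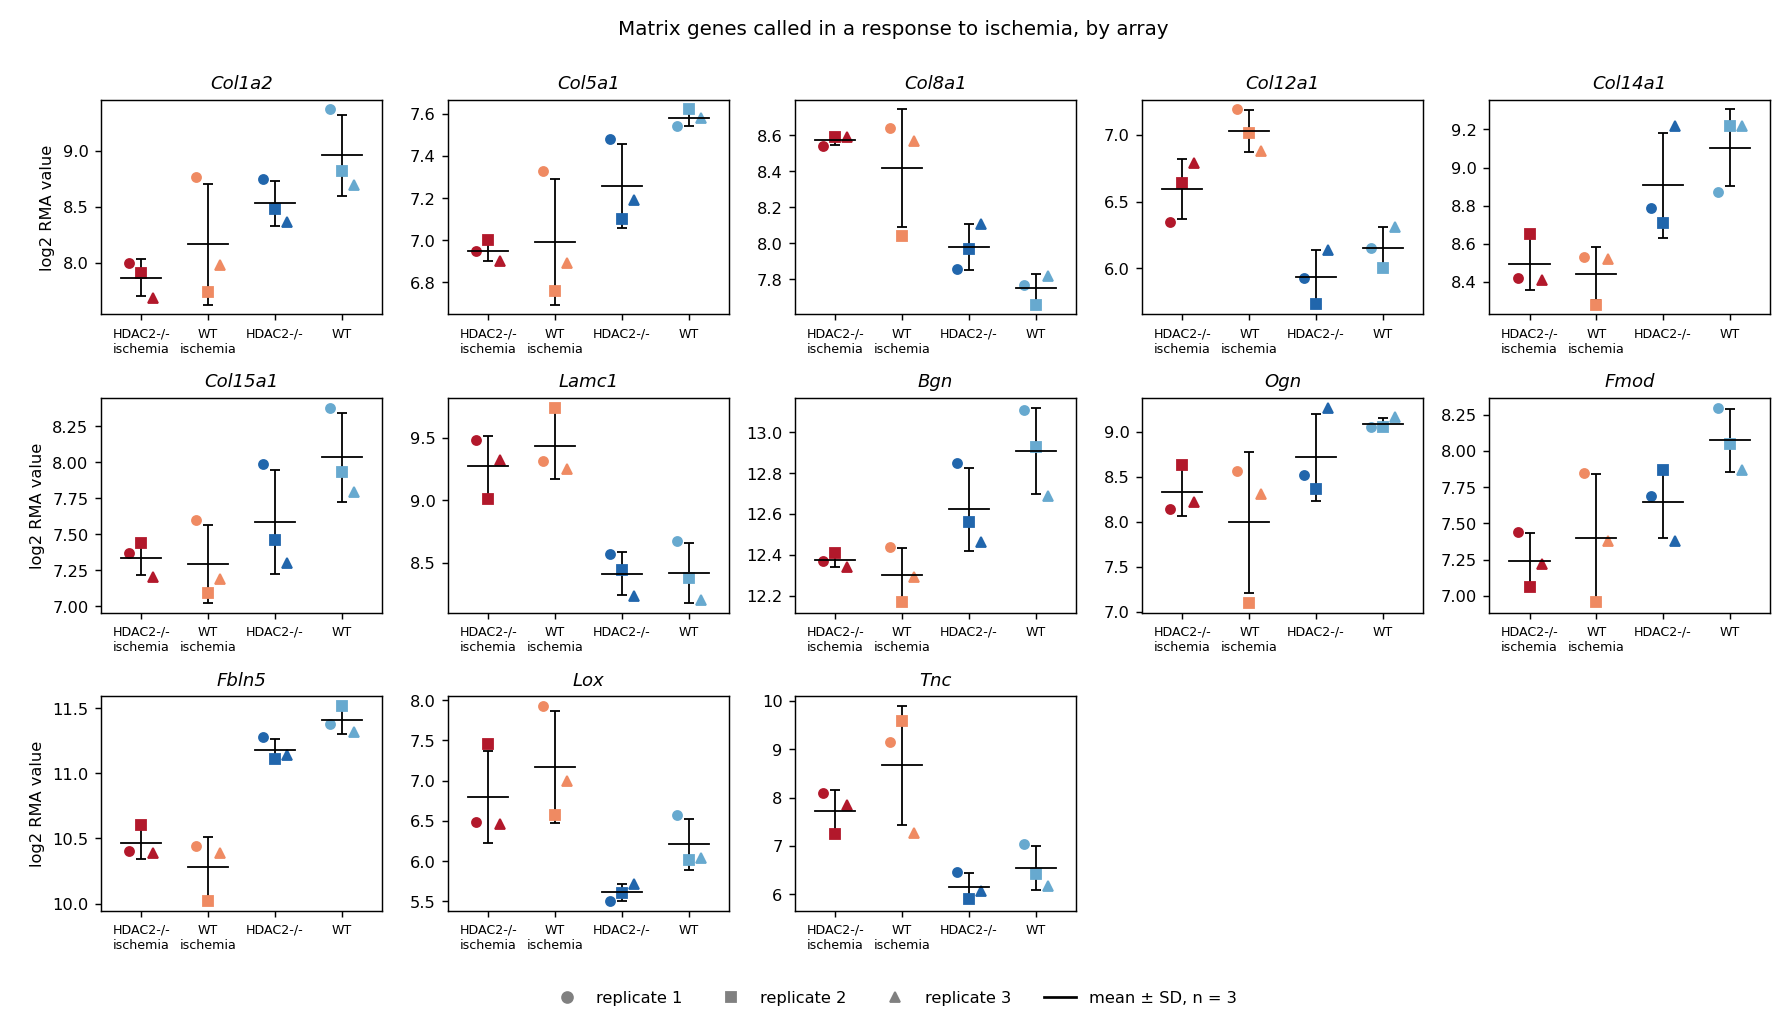
Log2 RMA value on each array (y axis) of the 13 matrix genes called in a response to ischemia, by group (x axis). Points are single mice with a symbol per replicate number, and lines and bars are the mean ± SD (n = 3). All ischemic arrays lie above the unischemic arrays of their genotype for Col8a1, Col12a1, Lamc1 and Tnc and below them for Fbln5, Bgn, Col5a1 and Col14a1.

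No member differed in its response between the genotypes at an adjusted p under 0.05, so a call in only 1 genotype is not a shown difference between them. The 5 members with the smallest p for the difference of the responses (HDAC2-/- response minus WT response) were Lama1 at -0.81 (95% interval -1.47 to -0.15, unadjusted p = 0.0193), Fbln5 at 0.41 (-0.02 to 0.84), Fbln2 at -0.45 (-0.99 to 0.09), Loxl1 at 0.50 (-0.11 to 1.11) and Bgn at 0.36 (-0.09 to 0.81), all with an adjusted p of 0.956 by limma. For Tnc the interval ran from -1.91 to 0.82 and for Ogn from -0.26 to 1.67, so differences of more than 2-fold between the genotypes were within the error. Over all probe sets this comparison gave 0 calls, with 4.19% at an unadjusted p under 0.05, and Lama1 was the only member of 48 at that level. Lama1, a laminin chain of tubular basement membranes, measured 6.54, 6.0 and 6.59 in ischemic HDAC2-/- and 6.78, 7.37 and 6.59 in ischemic WT kidneys, against 6.75, 6.70 and 6.30 in HDAC2-/- and 6.43, 6.40 and 6.09 in WT kidneys without ischemia. The difference was -0.58 without ischemic WT replicate 2, which held the highest Lama1 value.

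**Figure D2:**
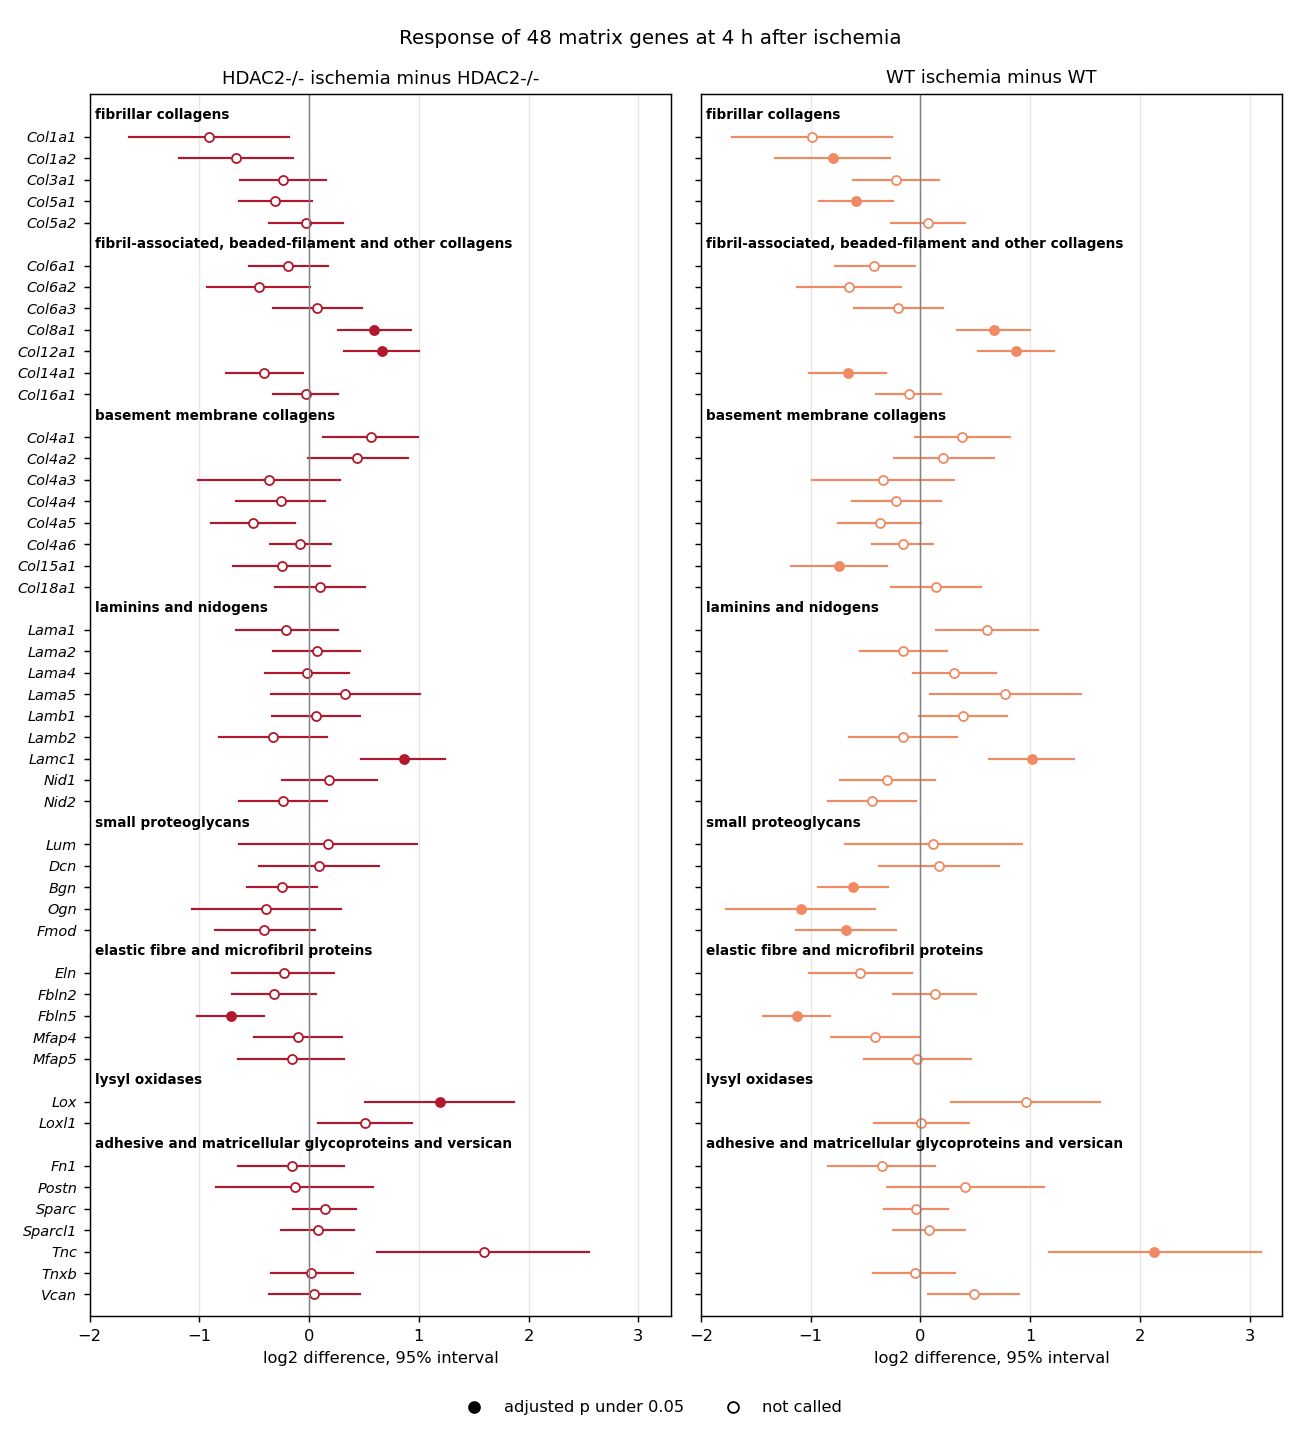
Log2 difference after ischemia (x axis, point with 95% interval from limma) of 48 matrix genes (y axis, grouped by role), for HDAC2-/- ischemia minus HDAC2-/- (left) and WT ischemia minus WT (right). Filled points have an adjusted p under 0.05. Tnc has the largest positive difference in both panels (1.59, not called, and 2.13, called), and the intervals of every gene overlap between the panels.

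Of the 5 fibrillar collagens, 0 were called in HDAC2-/- kidneys (beside 4.91% of all probe sets). All 5 had differences below 0 there (-0.91 to -0.03, beside 51.5% of all probe sets below 0). Col1a2 and Col5a1 fell in WT kidneys (40%, beside 7.17%), where 4 of 5 had differences below 0 (beside 52.9%). Col1a2, a chain of type I collagen, measured 8.00, 7.91 and 7.68 in ischemic HDAC2-/- and 8.77, 7.74 and 7.98 in ischemic WT kidneys, against 8.75, 8.48 and 8.36 in HDAC2-/- and 9.37, 8.82 and 8.69 in WT kidneys. The ischemic and unischemic arrays did not overlap in HDAC2-/- kidneys (-0.67 ± 0.24, adjusted p = 0.156) and overlapped through ischemic WT replicate 1 in WT kidneys (-0.80 ± 0.24, adjusted p = 0.0425). Col5a1, which helps to nucleate fibrils, measured 6.95, 7.00 and 6.90 in ischemic HDAC2-/- and 7.33, 6.76 and 6.89 in ischemic WT kidneys, against 7.48, 7.10 and 7.19 in HDAC2-/- and 7.54, 7.62 and 7.58 in WT kidneys. In neither genotype did its arrays overlap, with -0.31 ± 0.16 in HDAC2-/- (adjusted p = 0.357) and -0.59 ± 0.16 in WT kidneys (adjusted p = 0.023).

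Col1a1, the other type I chain, was not called in either response alone but fell over both genotypes together by 0.95 ± 0.24 (adjusted p = 0.0123). It measured 7.86, 7.23 and 7.82 in ischemic HDAC2-/- and 9.38, 7.68 and 8.05 in ischemic WT kidneys, against 8.79, 8.42 and 8.43 in HDAC2-/- and 9.71, 9.36 and 9.02 in WT kidneys. Ischemic WT replicate 1 was the only ischemic array within the range of the WT arrays, and without it the WT difference was -1.5 (adjusted p = 0.00261), where it had been -0.99 (adjusted p = 0.0711). The WT calls were close to the threshold. That of Col1a2 was lost on leaving out any of 8 of the 12 arrays (all but ischemic WT replicate 1, HDAC2-/- replicates 1 and 3 and WT replicate 3, adjusted p 0.0507 to 0.174), and that of Col5a1 on leaving out ischemic WT replicate 2 or 3 or any WT array (0.053 to 0.0904). Col3a1 and Col5a2 differed by -0.24 and -0.03 in HDAC2-/- and by -0.22 and 0.07 in WT kidneys, with no call.

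Among the fibril-associated, beaded-filament and other collagens, 2 of 7 rose in each genotype (28.6%). Of all probe sets, 2.94% rose in HDAC2-/- and 6.55% in WT kidneys. In WT kidneys 1 of the 7 fell (14.3%, beside 7.17%). Col12a1, which coats type I fibrils, measured 6.35, 6.64 and 6.79 in ischemic HDAC2-/- kidneys, against 5.93, 5.73 and 6.14 in HDAC2-/- kidneys, and 7.19, 7.01 and 6.88 in ischemic WT kidneys, against 6.15, 6.0 and 6.31 in WT kidneys. All ischemic arrays were above all unischemic arrays, by 0.66 ± 0.16 in HDAC2-/- (1.58-fold, adjusted p = 0.0291) and 0.87 ± 0.16 in WT kidneys (1.83-fold, adjusted p = 0.00275). Col8a1, a short-chain collagen of vessel walls and mesangium, measured 8.54, 8.59 and 8.59 in ischemic HDAC2-/- and 8.64, 8.04 and 8.57 in ischemic WT kidneys, against 7.86, 7.97 and 8.11 in HDAC2-/- and 7.77, 7.66 and 7.82 in WT kidneys. Its rise was 0.59 ± 0.16 in HDAC2-/- (adjusted p = 0.0449) and 0.67 ± 0.16 in WT kidneys (adjusted p = 0.0117), with no overlap of arrays in either.

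Col14a1, which also binds fibril surfaces, went the other way. It measured 8.42, 8.65 and 8.41 in ischemic HDAC2-/- and 8.53, 8.28 and 8.52 in ischemic WT kidneys, against 8.79, 8.71 and 9.22 in HDAC2-/- and 8.87, 9.22 and 9.22 in WT kidneys. The groups did not overlap in either genotype, and it was called in WT kidneys (-0.66 ± 0.16, adjusted p = 0.0154) but not in HDAC2-/- kidneys (-0.41 ± 0.16, adjusted p = 0.201). The type VI chains Col6a1, Col6a2 and Col6a3, which form beaded filaments around cells, differed by -0.19, -0.46 and 0.07 in HDAC2-/- and by -0.42, -0.65 and -0.20 in WT kidneys, and of these Col6a2 fell over both genotypes (-0.55 ± 0.16, adjusted p = 0.0217).

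Of these calls, that of Col12a1 in WT kidneys held with any 1 array left out. In HDAC2-/- kidneys it was lost without ischemic replicate 2 or 3 or unischemic replicate 1 or 2 (adjusted p 0.0953 to 0.151). The Col8a1 call was lost in HDAC2-/- kidneys without any of 8 arrays (the ischemic HDAC2-/- arrays, HDAC2-/- replicates 1 and 2 and the WT arrays, 0.0594 to 0.181) and in WT kidneys without ischemic WT replicate 1 or WT replicate 2 (0.0525 and 0.0553). That of Col14a1 was lost without ischemic WT replicate 2 or WT replicate 2 or 3 (0.0609 to 0.0724).

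Type IV collagen, the network-forming collagen of basement membranes, showed its chain pairs on opposite sides of 0. The genes lie in pairs that are read in opposite directions from neighbouring starts. Col4a1 and Col4a2, the chains found in nearly all basement membranes, were higher after ischemia, by 0.56 ± 0.20 and 0.44 ± 0.21 in HDAC2-/- and by 0.38 ± 0.20 and 0.21 ± 0.21 in WT kidneys, without a call in either genotype. Over both genotypes Col4a1 rose by 0.47 ± 0.14 (adjusted p = 0.032), and Col4a2 differed by 0.33 ± 0.15 (adjusted p = 0.168). Col4a3 and Col4a4, chains of the glomerular basement membrane that podocytes make, were lower by 0.37 ± 0.30 and 0.26 ± 0.19 in HDAC2-/- and by 0.34 ± 0.30 and 0.22 ± 0.19 in WT kidneys, not called. Col4a5 was lower by 0.51 ± 0.18 in HDAC2-/- and 0.37 ± 0.18 in WT kidneys and fell over both genotypes (-0.44 ± 0.13, adjusted p = 0.0251), while Col4a6 differed by -0.08 ± 0.13 and -0.16 ± 0.13. The call of Col4a1 was lost on leaving out any of 8 arrays and that of Col4a5 on leaving out any of 7 arrays (adjusted p up to 0.0815 and 0.0727).

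Col4a1 measured 9.36, 9.21 and 8.92 in ischemic HDAC2-/- and 9.41, 9.01 and 9.24 in ischemic WT kidneys, against 8.92, 8.67 and 8.22 in HDAC2-/- and 9.15, 8.77 and 8.59 in WT kidneys. Col4a2 measured 8.98, 8.82 and 8.48 in ischemic HDAC2-/- and 9.06, 8.73 and 8.67 in ischemic WT kidneys, against 8.65, 8.34 and 7.96 in HDAC2-/- and 8.93, 8.65 and 8.24 in WT kidneys. The same mouse held the highest value of both genes in 4 of 4 groups and the lowest in 3 of 4. For Col4a3 and Col4a4 these counts were also 4 and 3, and for Col4a5 and Col4a6 they were 3 and 2. This was not particular to the pairs, since Col18a1 and Fn1, which lie elsewhere, also had replicate 1 highest in 4 of 4 groups, as Col4a1 did. Col4a3 measured 8.16, 7.34 and 7.69 in ischemic HDAC2-/- and 7.80, 8.27 and 7.62 in ischemic WT kidneys, against 8.51, 8.30 and 7.48 in HDAC2-/- and 8.77, 8.15 and 7.79 in WT kidneys, so that its spread within a group was larger than the difference between groups. These descriptions share the RNA sample and the array, whose part was not tested.

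**Figure D3:**
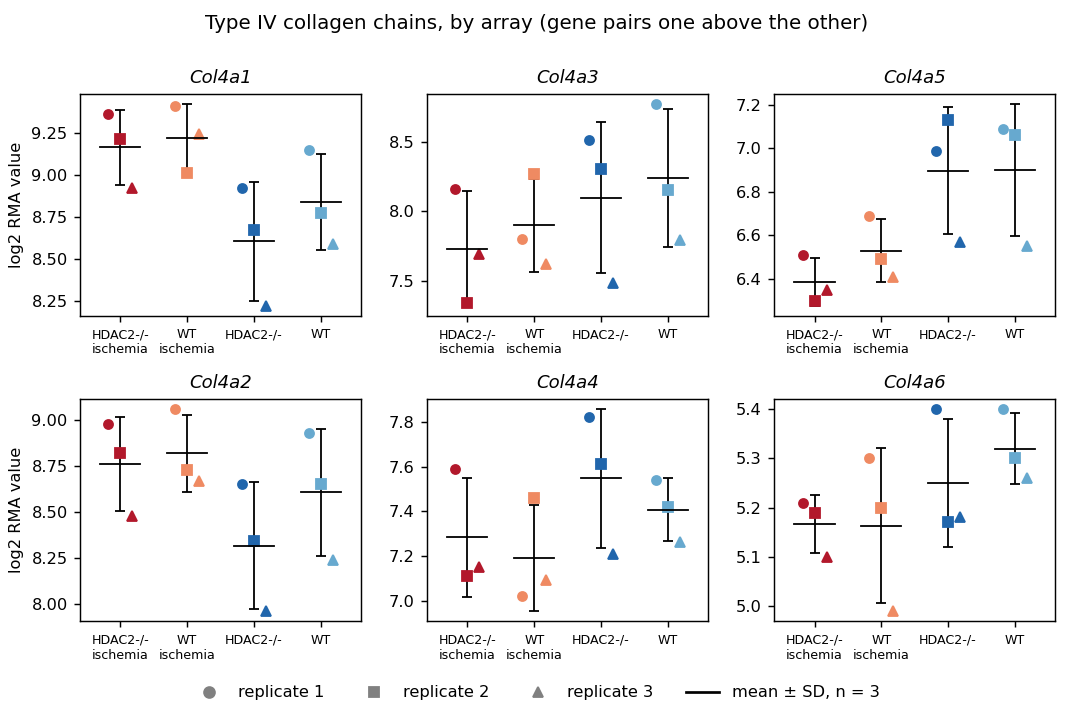
Log2 RMA value on each array (y axis) of the 6 type IV collagen genes by group (x axis), with each divergent gene pair one above the other. Points are single mice with a symbol per replicate number, and lines and bars are the mean ± SD (n = 3). The upper and lower panel of a pair have the same highest mouse in 4, 4 and 3 of the 4 groups, and Col18a1, outside the pairs, ranks replicate 1 highest in 4 of 4 groups as Col4a1 does.

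In RefSeq's GRCm38.p6 annotation the starts of Col4a1 (minus strand) and Col4a2 (plus strand) overlap, so that 22 bases on chromosome 8 are the first bases of both transcripts. This stretch, chr8:11312805-11312826, is shown on the plus strand because it is the point from which both chains of the main basement membrane collagen are transcribed.
Col4a1 and Col4a2: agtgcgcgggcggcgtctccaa
The starts of Col4a6 and Col4a5 on chromosome X have 1342 bases between them.

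Of 8 basement membrane collagens, 1 fell in WT kidneys (12.5%, beside 7.17% of all probe sets) and 0 were called in HDAC2-/- kidneys (beside 4.91%). This was Col15a1, a collagen of the outer basement membrane zone of vessels and muscle. It measured 7.37, 7.44 and 7.20 in ischemic HDAC2-/- and 7.60, 7.09 and 7.19 in ischemic WT kidneys, against 7.99, 7.46 and 7.30 in HDAC2-/- and 8.38, 7.93 and 7.79 in WT kidneys. The WT groups were apart (-0.74 ± 0.21, adjusted p = 0.0273) and the HDAC2-/- groups overlapped (-0.25 ± 0.21, adjusted p = 0.64). The call was lost without ischemic WT replicate 2 or 3 or WT replicate 1 or 2 (0.0616 to 0.119). Col18a1, the source of endostatin, differed by 0.10 ± 0.19 in HDAC2-/- and 0.14 ± 0.19 in WT kidneys.

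Of 9 laminin and nidogen genes, 1 rose in each genotype (11.1%) and 0 fell. Of all probe sets, 2.94% rose and 1.97% fell in HDAC2-/- kidneys, and 6.55% rose and 7.17% fell in WT kidneys. The gene that rose was Lamc1, the gamma chain shared by most laminins. It measured 9.48, 9.01 and 9.32 in ischemic HDAC2-/- kidneys, against 8.57, 8.44 and 8.23 in HDAC2-/- kidneys, and 9.31, 9.74 and 9.25 in ischemic WT kidneys, against 8.67, 8.38 and 8.20 in WT kidneys. Every ischemic array was above every unischemic array, by 0.86 ± 0.18 in HDAC2-/- (1.81-fold, adjusted p = 0.0135) and 1.02 ± 0.18 in WT kidneys (2.02-fold, adjusted p = 0.00228). The WT call held with any array left out, and the HDAC2-/- call was lost without ischemic replicate 1 or 3 or unischemic replicate 2 (0.0522 to 0.062).

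The partner chains of Lamc1 gave no call. Lama5, the alpha chain of mature glomerular and tubular membranes, differed by 0.33 ± 0.32 in HDAC2-/- and 0.77 ± 0.32 in WT kidneys, and Lamb1 by 0.06 ± 0.19 and 0.39 ± 0.19. Lamb2, the beta chain of the glomerular membrane, differed by -0.33 ± 0.23 and -0.16 ± 0.23. Ischemic WT replicate 2 was the highest of all 12 arrays for Lama1 (7.37), Lama4 (6.72), Lama5 (10.23), Lamb1 and Lamc1 (9.74), the lowest for Nid1 (9.91), level with the lowest for Lama2 (7.96) and in between for Lamb2 (8.81) and Nid2. The linker proteins Nid1 and Nid2 differed by 0.18 ± 0.20 and -0.24 ± 0.19 in HDAC2-/- and by -0.30 ± 0.20 and -0.44 ± 0.19 in WT kidneys, not called.

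Of the small proteoglycans, 3 of 5 fell in WT kidneys (Ogn, Fmod, Bgn, 60%, beside 7.17% of all probe sets). Lum and Dcn gave no call there, and 0 of 5 were called in HDAC2-/- kidneys (beside 4.91% of all probe sets). The positive WT differences of Lum (0.12) and Dcn (0.17) rested on ischemic WT replicate 1 (7.20 and 10.71). The other ischemic WT arrays were at 5.05 and 5.55 for Lum and at 9.51 and 10.04 for Dcn. Bgn (biglycan) measured 12.37, 12.41 and 12.34 in ischemic HDAC2-/- and 12.44, 12.17 and 12.29 in ischemic WT kidneys, against 12.85, 12.56 and 12.46 in HDAC2-/- and 13.11, 12.93 and 12.69 in WT kidneys. No arrays overlapped in either genotype, with -0.25 ± 0.15 in HDAC2-/- (adjusted p = 0.452) and -0.61 ± 0.15 in WT kidneys (adjusted p = 0.014). Ogn (osteoglycin, a fibril-binding proteoglycan) measured 8.14, 8.63 and 8.22 in ischemic HDAC2-/- and 8.57, 7.10 and 8.31 in ischemic WT kidneys, against 8.52, 8.36 and 9.27 in HDAC2-/- and 9.05, 9.05 and 9.16 in WT kidneys. The WT groups were apart (-1.09 ± 0.32, 2.13-fold lower, adjusted p = 0.0339) and the HDAC2-/- groups overlapped (-0.39 ± 0.32, adjusted p = 0.632).

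Fmod (fibromodulin, which limits fibril thickness) measured 7.44, 7.06 and 7.22 in ischemic HDAC2-/- and 7.85, 6.96 and 7.38 in ischemic WT kidneys, against 7.69, 7.87 and 7.38 in HDAC2-/- and 8.30, 8.05 and 7.87 in WT kidneys. Its WT difference was -0.68 ± 0.21 (adjusted p = 0.0481) and its HDAC2-/- difference -0.41 ± 0.21 (adjusted p = 0.367). Quantile normalisation of the arrays ended the WT calls of Ogn and Fmod (adjusted p = 0.0528 and 0.0631). Ischemic WT replicate 2 was the lowest of all arrays for Bgn, Ogn, Fmod and Lum. Without it the Ogn difference was -0.65 (adjusted p = 0.118), the Fmod difference -0.46 (0.192) and the Bgn difference -0.55 (0.052). Of the 8 WT falls 1 was still called, while WT calls over all probe sets went from 4730 to 3270. The Fmod call was lost without any of 10 arrays (0.0516 to 0.192), that of Ogn also without any WT array (0.0745 to 0.0922) and that of Bgn also without WT replicate 1 or 2 (0.0651 and 0.0541). Lum (lumican) measured 5.45, 5.61 and 5.24 in ischemic HDAC2-/- and 7.20, 5.05 and 5.55 in ischemic WT kidneys, against 5.07, 5.54 and 5.17 in HDAC2-/- and 5.87, 5.78 and 5.79 in WT kidneys.

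Of the 5 measured elastic fibre and microfibril genes, 1 fell in each genotype (20%, beside 1.97% of all probe sets in HDAC2-/- and 7.17% in WT kidneys). This was Fbln5 (fibulin-5, which links elastin to cells and is needed for elastic fibre assembly), and no other was called. It measured 10.40, 10.60 and 10.39 in ischemic HDAC2-/- kidneys, against 11.28, 11.11 and 11.14 in HDAC2-/- kidneys, and 10.44, 10.02 and 10.39 in ischemic WT kidneys, against 11.38, 11.52 and 11.32 in WT kidneys. The groups were far apart in both, by -0.71 ± 0.14 in HDAC2-/- (1.64-fold lower, adjusted p = 0.00976) and -1.12 ± 0.14 in WT kidneys (2.18-fold lower, adjusted p = 0.000244). The WT call held with any array left out, and the HDAC2-/- call was lost without ischemic replicate 3 or unischemic replicate 1 (0.0527 and 0.0555). Elastin itself (Eln) differed by -0.23 ± 0.22 in HDAC2-/- and -0.55 ± 0.22 in WT kidneys, and Mfap4 by -0.10 ± 0.19 and -0.41 ± 0.19. Without ischemic WT replicate 1 both passed the threshold in WT kidneys, at -0.78 (adjusted p = 0.0285) and -0.63 (0.0311).

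Lox, the lysyl oxidase that cross-links collagen and elastin, measured 6.48, 7.46 and 6.46 in ischemic HDAC2-/- kidneys, against 5.51, 5.6 and 5.72 in HDAC2-/- kidneys, and 7.93, 6.57 and 7.00 in ischemic WT kidneys, against 6.57, 6.01 and 6.04 in WT kidneys. The HDAC2-/- groups were apart (1.19 ± 0.32, 2.28-fold, adjusted p = 0.0462), and the WT groups touched at 6.57 (0.96 ± 0.32, adjusted p = 0.0603). Over both genotypes the rise was 1.07 ± 0.22 (adjusted p = 0.00365). The HDAC2-/- call was lost without any of 9 arrays (each of the HDAC2-/- arrays with and without ischemia, ischemic WT replicate 3 and WT replicates 2 and 3, 0.0532 to 0.185). Its relative Loxl1 was higher by 0.51 ± 0.20 in ischemic HDAC2-/- kidneys, with no overlap but no call (adjusted p = 0.19), and differed by 0.01 ± 0.20 in WT kidneys. Without ischemic HDAC2-/- replicate 3, 0 members were called in HDAC2-/- kidneys in either direction. Calls over all probe sets there went from 1691 to 817.

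Tnc (tenascin-C, a matricellular protein of wounds and developing tissue) had the largest difference of all members. It measured 8.10, 7.25 and 7.84 in ischemic HDAC2-/- kidneys, against 6.46, 5.90 and 6.07 in HDAC2-/- kidneys, and 9.15, 9.59 and 7.27 in ischemic WT kidneys, against 7.04, 6.41 and 6.16 in WT kidneys. All ischemic arrays were above all unischemic arrays of their genotype, and ischemic WT replicate 3 lay among the ischemic HDAC2-/- values. The difference in HDAC2-/- kidneys was 1.59 ± 0.45 (3.0-fold) with an adjusted p of 0.0612, and the rise in WT kidneys was 2.13 ± 0.45 (4.39-fold, adjusted p = 0.00636), a call that held with any array left out, at 1.67 to 2.83. The HDAC2-/- difference passed the threshold without ischemic WT replicate 2 (0.0337) or 3 (0.00364), arrays that enter this difference only through the shared spread, and with probe sets of a mean log2 under 5 left out (0.0424). The WT call was lost without empirical Bayes moderation (0.0577). The other 6 adhesive and matricellular genes gave no call. Fn1 (fibronectin) differed by -0.16 ± 0.23 in HDAC2-/- and -0.35 ± 0.23 in WT kidneys, and Sparc (osteonectin) by 0.14 ± 0.14 and -0.04 ± 0.14.

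**Figure D4:**
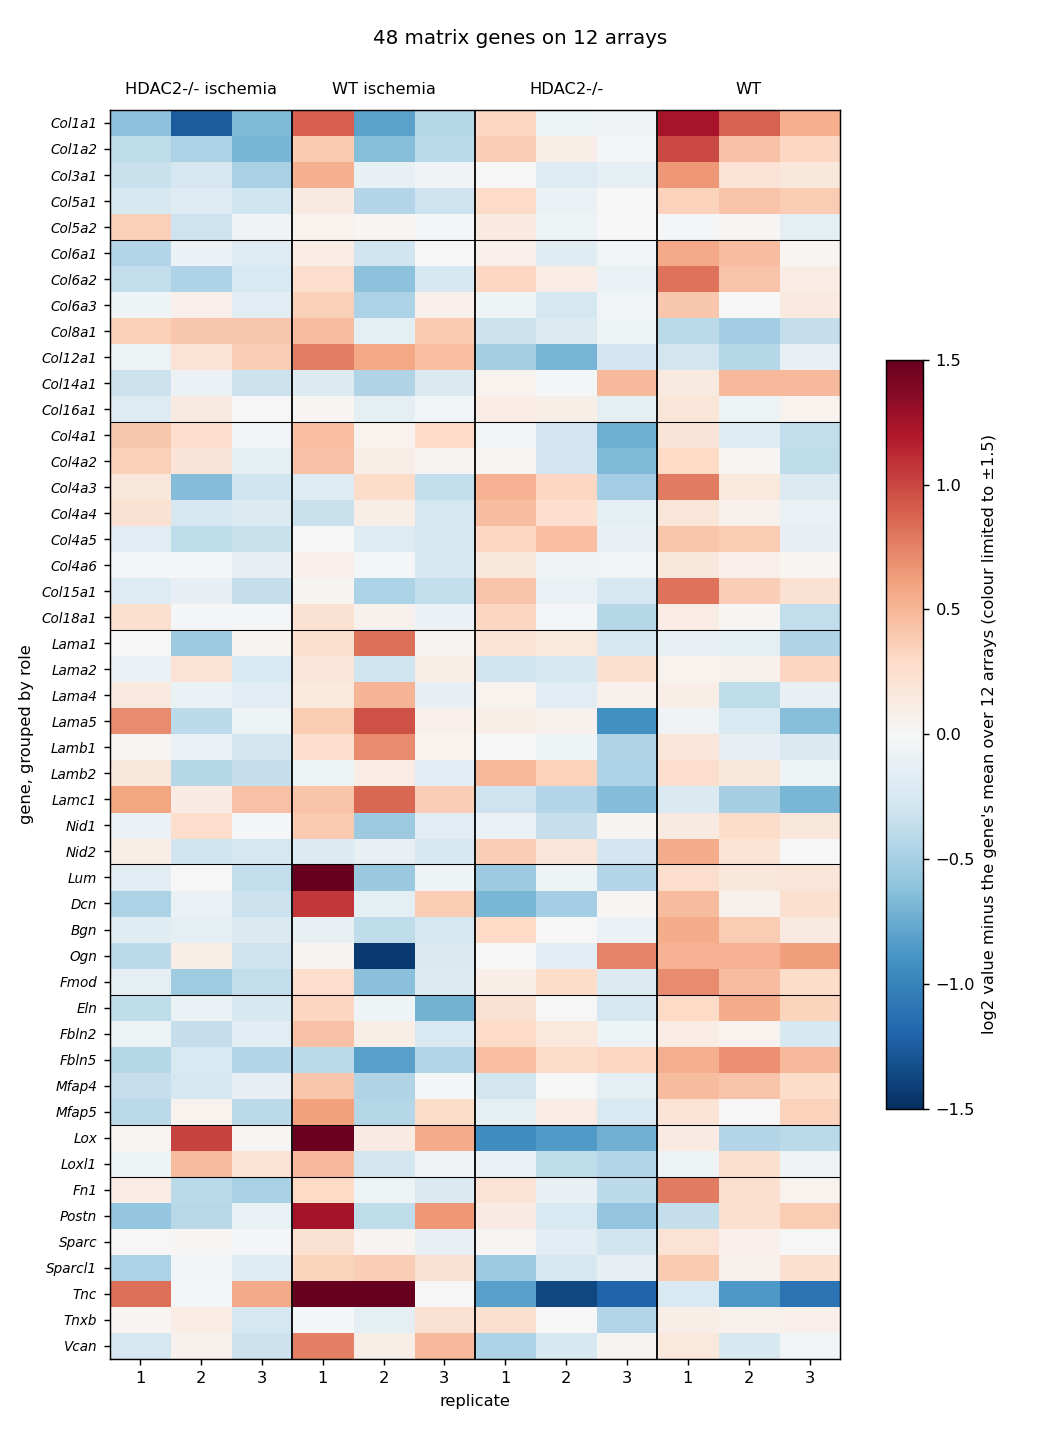
Log2 RMA value minus the mean over 12 arrays of each of 48 matrix genes (y axis, lines divide the 8 roles) on each array (x axis, replicate number within group), with the colour limited to ±1.5. Ischemic WT replicate 1 is high for Lum, Dcn, Postn and Col1a1, ischemic WT replicate 2 is high for Lama1, Lama4, Lama5, Lamb1 and Lamc1 and low for Ogn and Nid1, and the HDAC2-/- columns without ischemia are mostly paler or bluer than the WT columns.

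RefSeq windows of 250 bases before and 50 after a gene start were on hand for 31 of the 50 genes. They were searched on both strands for TGANTCA (the AP-1 motif), the CArG box bound by SRF, CAGAC (a SMAD element) and TATAAA (a form of the TATA box). Of 36 windows of members, 5.56% held TGANTCA (all windows: 7.81%), 2.78% the CArG box (1.63%), 61.1% CAGAC (49.6%) and 13.9% TATAAA (13.6%). TGANTCA was in windows of Col6a1 and Tnxb, the CArG box in that of Lama2, and TATAAA in windows of Col3a1, Ogn, Postn and Tnc. The 250 bases before the start are shown for the members with the largest called rise (Tnc) and fall (Fbln5), each at the one of its 2 annotated starts chosen for the most matches, with matches in capitals. They are Tnc at chr4:64046937-64047186 and Fbln5 at chr12:101818485-101818734, both on the minus strand of GRCm38.p6.
Tnc: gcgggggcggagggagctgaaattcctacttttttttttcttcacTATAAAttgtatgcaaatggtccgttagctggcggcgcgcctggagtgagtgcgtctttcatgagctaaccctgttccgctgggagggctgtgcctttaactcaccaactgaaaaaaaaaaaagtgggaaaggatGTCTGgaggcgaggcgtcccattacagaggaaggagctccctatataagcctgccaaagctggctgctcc
Fbln5: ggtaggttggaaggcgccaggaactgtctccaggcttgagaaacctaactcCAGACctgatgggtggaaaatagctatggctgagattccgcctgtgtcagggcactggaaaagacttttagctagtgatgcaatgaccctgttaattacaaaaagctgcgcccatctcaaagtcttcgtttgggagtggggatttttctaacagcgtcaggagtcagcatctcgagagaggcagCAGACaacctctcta
In Tnc, TATAAA spans 205 to 200 bases and the reverse complement of CAGAC 70 to 66 bases before the start. Closer to the start, the Tnc sequence also reads tatataag, which differs from the TATAAA searched for and is left unmarked. In Fbln5, CAGAC lies 199 to 195 and 15 to 11 bases before the start. These are matches of letters only.

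For 6 members a second probe set with a lower mean was on the array (Col1a2, Col5a1, Col6a1, Nid1, Bgn, Fmod), and the choice changed several values. The second Col1a2 probe set (mean 5.98, against 8.38 for the one used) fell in both genotypes, by 0.96 in HDAC2-/- (adjusted p = 0.0393) and 1.42 in WT kidneys (0.00191). The second Col6a1 probe set (6.76, against 8.89) was lower by 0.60 in HDAC2-/- kidneys (0.138) and fell by 1.10 in WT kidneys (0.00336), where the one used was not called. The second Bgn probe set (9.33, against 12.55) fell by 0.88 in WT kidneys (0.0015). That of Col5a1 (5.20, against 7.20) differed by 0.00 in HDAC2-/- and -0.07 in WT kidneys, so the Col5a1 call rests on 1 of its 2 probe sets, and that of Fmod (6.31, against 7.59) differed by -0.58 in WT kidneys (0.0849).

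Genes that fold, modify and secrete collagen moved both ways in WT kidneys, where 4 of 20 measured rose (20%, beside 6.55% of all probe sets) and 4 fell (20%, beside 7.17%). The collagen lysyl hydroxylase Plod2 rose by 0.96 ± 0.16 in HDAC2-/- (adjusted p = 0.00375) and 1.18 ± 0.16 in WT kidneys (0.000488). The prolyl hydroxylase subunit P4ha1 and the collagen chaperone Serpinh1 rose in WT kidneys by 1.13 ± 0.23 (0.00512) and 0.98 ± 0.28 (0.0288). Colgalt2, a collagen galactosyltransferase, fell by 0.96 ± 0.17 in HDAC2-/- (0.00447) and 0.91 ± 0.17 in WT kidneys (0.003), and Crtap and P3h4, parts of prolyl 3-hydroxylation and lysyl hydroxylation complexes, fell in WT kidneys by 0.90 ± 0.15 (0.00163) and 0.89 ± 0.17 (0.00318). Those of Colgalt2 and Plod2 were the only 2 calls of this list in HDAC2-/- kidneys (5% fell, beside 1.97%, and 5% rose, beside 2.94%).

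Of 35 other measured matrix components, 2 rose (5.71%, beside 2.94% of all probe sets) and 3 fell (8.57%, beside 1.97%) in HDAC2-/- kidneys, and 2 rose (5.71%, beside 6.55%) and 6 fell (17.1%, beside 7.17%) in WT kidneys, so that the rises in WT kidneys were no more frequent than over the array. Tgfbi, a collagen-binding adhesion protein induced by TGF-beta, measured 9.55, 9.51 and 9.21 in ischemic HDAC2-/- and 10.06, 10.16 and 9.83 in ischemic WT kidneys, against 8.73, 8.52 and 8.60 in HDAC2-/- and 8.74, 8.88 and 8.89 in WT kidneys. It rose by 0.81 ± 0.14 in HDAC2-/- (adjusted p = 0.00421) and 1.18 ± 0.14 in WT kidneys (0.000168), with all arrays apart. The other rise in both was Col27a1 (0.56 ± 0.13 and 0.45 ± 0.13). Egflam (pikachurin, a dystroglycan ligand) fell by 0.81 ± 0.18 in HDAC2-/- and 1.39 ± 0.18 in WT kidneys, the microfibril protein Mfap2 by 0.80 ± 0.19 and 1.18 ± 0.19, Prelp, a proteoglycan that anchors basement membranes, by 1.38 ± 0.24 in WT kidneys, and Fras1, a basement membrane adhesion protein, by 0.94 ± 0.24 in HDAC2-/- kidneys.

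Among 22 genes of TGF-beta ligands, latency proteins, receptors and SMADs, 1 rose and 1 fell in HDAC2-/- kidneys (4.55% each, beside 2.94% and 1.97% of all probe sets) and 4 rose and 4 fell in WT kidneys (18.2% each, beside 6.55% and 7.17%). The corepressor Tgif1 rose by 1.19 ± 0.16 in HDAC2-/- (adjusted p = 0.0006) and 0.96 ± 0.16 in WT kidneys (0.00136), and the endothelial co-receptor Eng fell by 0.72 ± 0.16 (0.0209) and 0.81 ± 0.16 (0.00495). In WT kidneys the pathway inhibitor Skil rose by 1.16 ± 0.19 (0.00156) and the receptor Tgfbr1 by 1.11 ± 0.21 (0.00312), and the inhibitory Smad6 and the latency protein Ltbp4 fell by 0.81 ± 0.22 and 0.77 ± 0.19. Of 11 measured targets of TGF-beta and of SRF and YAP in matrix-producing cells, 4 rose in HDAC2-/- kidneys (36.4%, beside 2.94% of all probe sets). In WT kidneys 5 rose (45.5%, beside 6.55%) and 1 fell (9.09%, beside 7.17%). Ccn1, a matricellular early gene, rose by 1.91 ± 0.30 in HDAC2-/- (0.00207) and 1.31 ± 0.30 in WT kidneys (0.0105), Vcl (vinculin) by 1.14 ± 0.22 (0.00843) and 1.45 ± 0.22 (0.000873), and Tagln (transgelin) by 1.19 ± 0.18 (0.00139) and 0.69 ± 0.18 (0.018). Myl9 fell by 0.99 ± 0.15 in WT kidneys (0.00071).

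Markers of other cells in the tissue moved as well. Of 12 fibroblast and pericyte markers, 2 rose (16.7%, beside 2.94% of all probe sets) and 1 fell (8.33%, beside 1.97%) in HDAC2-/- kidneys. In WT kidneys 1 rose (8.33%, beside 6.55%) and 3 fell (25%, beside 7.17%). Tcf21, a stromal and podocyte transcription factor, fell by 1.41 ± 0.21 in HDAC2-/- (adjusted p = 0.00155) and 2.24 ± 0.21 in WT kidneys (2.72e-05), Cxcl12 fell by 1.2 ± 0.16 in WT kidneys (0.000399), and Nt5e, an ectonucleotidase of cortical fibroblasts and proximal tubules, rose by 1.01 ± 0.25 (0.031) and 1.36 ± 0.25 (0.00262). Their mean level was 8.01 to 8.14 in ischemic HDAC2-/- and 8.06 to 8.10 in ischemic WT kidneys, against 8.09 to 8.22 in HDAC2-/- and 8.28 to 8.49 in WT kidneys, so it was lower after ischemia in WT kidneys with no overlap. The 6 measured podocyte markers, which bear on Col4a3 and Col4a4, averaged 7.98 to 8.30 in ischemic HDAC2-/- and 8.00 to 8.25 in ischemic WT kidneys, against 8.32 to 8.66 in HDAC2-/- and 8.40 to 8.56 in WT kidneys. Of 10 endothelial markers, 1 rose (10%) and 3 fell (30%) in HDAC2-/- kidneys and 2 rose (20%) and 4 fell (40%) in WT kidneys, beside the same shares. Their mean was 9.02 to 9.39 in ischemic HDAC2-/- and 9.20 to 9.31 in ischemic WT kidneys, against 9.34 to 9.46 in HDAC2-/- and 9.43 to 9.52 in WT kidneys, with no overlap in WT kidneys. Of 10 white blood cell markers, 4 rose in HDAC2-/- kidneys (40%) and 3 rose (30%) and 1 fell (10%) in WT kidneys, beside the same shares. The part of any of these cells in the matrix gene values was not tested.

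Between genotypes no member was called, and neither was any other probe set, in ischemic kidneys, in kidneys without ischemia or over both states. The differences nevertheless leaned one way. In ischemic kidneys 36 of 48 members (75%) were lower in HDAC2-/- than in WT mice, beside 47.2% of all probe sets, and 9 (18.8%) were lower at an unadjusted p under 0.05, beside 2.81% of all probe sets (6.59% in either direction). Without ischemia 39 (81.2%) were lower in HDAC2-/- than in WT mice, beside 49.2%, and 7 (14.6%) were lower at that level, beside 1.22% (2.38% in either direction). No member was higher at that level in either state, beside 3.78% of all probe sets in ischemic kidneys and 1.16% without ischemia. Col1a1, Col3a1, Dcn and Sparcl1 were in both sets, 44.4% of the ischemic set and 57.1% of the unischemic one. The genes are not independent, since many come from the same cells, and the list was made with these results known.

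Without ischemia, the 5 members with the smallest p were Sparcl1, Mfap4, Dcn, Col3a1 and Col1a1, each lower in every HDAC2-/- array than in any WT array. Sparcl1 (hevin, a vessel-associated matricellular protein) measured 7.66, 7.95 and 8.08 in HDAC2-/- kidneys, against 8.60, 8.27 and 8.45 in WT kidneys (-0.54, 95% interval -0.88 to -0.21, unadjusted p = 0.00368, adjusted p = 1). Mfap4, a microfibril protein, measured 5.75, 6.04 and 5.88 in HDAC2-/- kidneys, against 6.50, 6.46 and 6.30 in WT kidneys (-0.53, -0.93 to -0.13). Dcn (decorin, a small proteoglycan that binds TGF-beta) measured 8.97, 9.15 and 9.67 in HDAC2-/- kidneys, against 10.13, 9.72 and 9.90 in WT kidneys (-0.65, -1.21 to -0.10). The adjusted p was 1 for each of the 3.

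Col3a1 measured 7.91, 7.72 and 7.77 in HDAC2-/- kidneys, against 8.56, 8.13 and 8.08 in WT kidneys (-0.46, -0.85 to -0.07), and Col1a1 differed by -0.82 (-1.55 to -0.09). The groups did not overlap for 14 of 48 members without ischemia (29.2%, beside 7.62% of all probe sets), with HDAC2-/- below WT for 13 (27.1%, beside 3.83%) and above for Col8a1 (beside 3.79%). For single members the two-sided exact permutation test gave p = 0.1 wherever groups of 3 did not overlap, the smallest value it can give. The count of members at an unadjusted p under 0.05 was 2 without WT replicate 1 and 3 without HDAC2-/- replicate 2. It was 4 without WT replicate 2 and 11 without HDAC2-/- replicate 1 or WT replicate 3. It was 13 without ischemic WT replicate 1, which enters only through the shared spread. These counts have no matching share of all probe sets, so a change of the members cannot be told from one of the whole array. With any 1 array left out, 32 to 42 of 48 members were lower in HDAC2-/- kidneys. Their median difference was -0.33 to -0.19, beside -0.008 to 0.008 over all probe sets. Markers of several cell types leaned lower too, beside 49.2% of all probe sets lower, while those of podocytes and tubules leaned higher. The fibroblast and pericyte markers averaged 8.09 to 8.22 in HDAC2-/- and 8.28 to 8.49 in WT kidneys, with 10 of 12 lower and Pdgfra (-0.51 ± 0.20) and Rgs5 (-0.46 ± 0.19) at an unadjusted p under 0.05. At that level 1.22% of all probe sets were lower and 1.16% higher. Of 10 endothelial markers 9 were lower in HDAC2-/- kidneys, with 0 at that level, and of 10 white blood cell markers 9 were lower, with 1 at that level. In contrast, 5 of 6 podocyte markers and 7 of 10 proximal tubule markers were higher in HDAC2-/- kidneys. So were 4 of 6 markers of the loop, distal tubule and collecting duct, with 0 at that level in each of these lists. The part of these cells in the difference was not tested.

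In ischemic kidneys, the 5 members with the smallest p were Sparcl1, Vcan, Dcn, Col12a1 and Col3a1. Sparcl1 measured 7.73, 8.17 and 8.02 in ischemic HDAC2-/- kidneys, against 8.54, 8.58 and 8.44 in ischemic WT kidneys (-0.55, -0.88 to -0.21, unadjusted p = 0.00352, adjusted p = 0.713). Vcan (versican, a large proteoglycan of provisional matrix) measured 4.60, 4.93 and 4.54 in ischemic HDAC2-/- kidneys, against 5.62, 4.95 and 5.35 in ischemic WT kidneys (-0.62, -1.03 to -0.20). Dcn measured 9.18, 9.55 and 9.33 in ischemic HDAC2-/- kidneys, against 10.71, 9.51 and 10.04 in ischemic WT kidneys (-0.73, -1.29 to -0.18). The first of these WT values is from replicate 1, which was high for Dcn and Vcan and not for Sparcl1. Col12a1 differed by -0.43 (-0.78 to -0.09) and Col3a1 by -0.48 (-0.87 to -0.09). The ischemic groups did not overlap for 5 members (Col3a1, Col12a1, Lamb1, Sparcl1 and Vcan), all with HDAC2-/- below WT (10.4%, beside 4.08% of all probe sets below, 5.99% above and 10.1% in all).

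The lean in ischemic kidneys rested on ischemic WT replicate 1. Without it, 23 of 48 members were lower and 25 higher in ischemic HDAC2-/- kidneys. The median difference was 0.01 where it had been -0.16, beside 0.030 over all probe sets where it had been 0.013. At an unadjusted p under 0.05, 4 members were lower and 1 higher, counts without a matching share of all probe sets. Vcan then differed by -0.46, Dcn by -0.42, Col12a1 by -0.35 and Col3a1 by -0.27, while Sparcl1 stayed at -0.54. Postn (periostin, a matricellular protein of activated fibroblasts) was 4.85, 5.02 and 5.34 in ischemic HDAC2-/- kidneys, against 6.68 in that array and 5.05 and 6.09 in the other ischemic WT arrays. The fat cell marker Cidec was 4.99, 5.12 and 5.38 in ischemic HDAC2-/- kidneys, against 7.21 in that array and 5.15 and 5.57 in the other ischemic WT arrays. Another, Retn, was 5.37, 5.47 and 5.77 in ischemic HDAC2-/- kidneys, against 8.33 in that array and 5.19 and 6.58 in the other ischemic WT arrays. The defining fat gene Adipoq lay between 3.90 and 4.70 on all 12 arrays. Of the capsule, adventitial and mesothelial markers, 8 of 8 were lower in ischemic HDAC2-/- than in ischemic WT kidneys, beside 47.2% of all probe sets. Their mean level was 6.32 to 6.44, against 6.48 to 6.97. At an unadjusted p under 0.05, 3 were lower (37.5%, beside 2.81%). These counts include ischemic WT replicate 1 and were not made without it. The part of these cells in the differences was not tested.

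**Figure D5:**
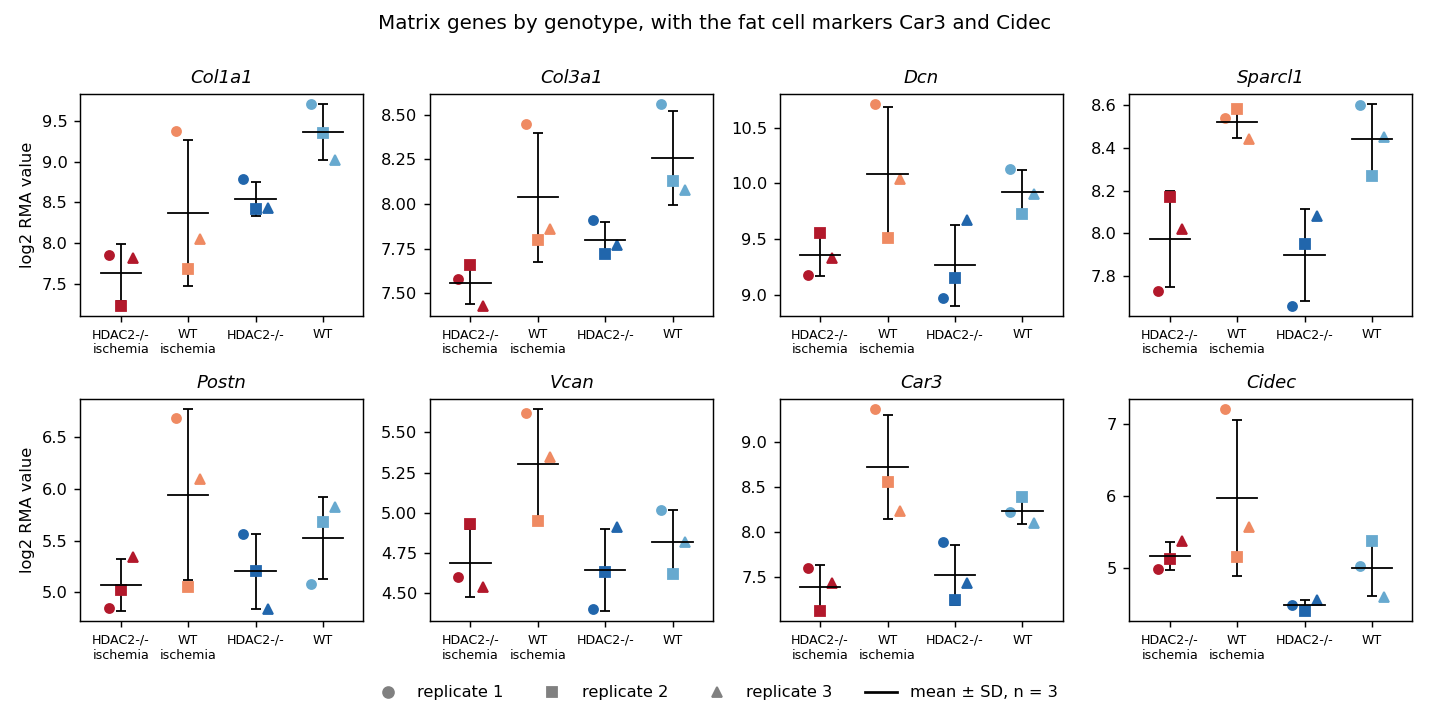
Log2 RMA value on each array (y axis) of 6 matrix genes and the fat cell markers Car3 and Cidec by group (x axis). Points are single mice with a symbol per replicate number, and lines and bars are the mean ± SD (n = 3). Sparcl1 is lower in each HDAC2-/- group than in the WT group beside it with no overlap, and ischemic WT replicate 1 is the highest array of its group for Col1a1, Col3a1, Dcn, Postn, Vcan, Car3 and Cidec.

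Over both states together, 43 of 48 members (89.6%, beside 47.7% of all probe sets) were lower in HDAC2-/- than in WT kidneys, and 11 (22.9%, beside 1.96%) were lower and 0 higher (beside 2.11%) at an unadjusted p under 0.05, a level that 4.07% of all probe sets passed in either direction. Sparcl1 had the smallest p of these (-0.55 ± 0.11, unadjusted p = 0.00022, adjusted p = 0.385), followed by Dcn (-0.69 ± 0.18), Col3a1 (-0.47 ± 0.13), Col1a1 (-0.78 ± 0.24) and Vcan (-0.40 ± 0.14). Without ischemic WT replicate 1 these differences were -0.54, -0.54, -0.36, -0.52 and -0.32. At that level 7 members were then lower and 1 higher, again without a matching share of all probe sets. By role, 7 of 7 adhesive and matricellular genes and 4 of 5 fibrillar collagens were lower in HDAC2-/- than in WT mice without ischemia, as were 5 of 5 small proteoglycans, 4 of 5 elastic fibre genes and 2 of 2 lysyl oxidases. In that comparison 49.2% of all probe sets were lower. The laminins and nidogens were split, with 5 lower and 3 higher and Lamb2 at 0.00. Of the 35 other matrix components 26 were lower without ischemia, 4 of them at an unadjusted p under 0.05 (11.4%, beside 1.22% of all probe sets). Tgfbi differed by -0.59 ± 0.14 in ischemic kidneys (unadjusted p = 0.000871, adjusted p = 0.639), with no overlap between the genotypes.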

How the data were processed

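RNA of 12 kidneys, 3 per group, had been hybridised to 12 arrays. The authors used Transcriptome Analysis Console 4.0 with RMA, and their deposited log2 values entered the tests without further scaling. Summarisation settings and the genome build are not given in the sources used here. Because RMA brings arrays to a common distribution, a change shared by most genes would not be seen. Arrays give no depth, and their number limits the precision.

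Groups came from the sample titles. Of 34472 probe sets, 23521 carried 1 symbol in the annotation table, 1820 several and 9131 none. Where a member had several, that with the highest mean over 12 arrays was used. limma 3.58.1 in R 4.3.3 was fitted with 1 mean per group over all 12 arrays (8 residual and 5.94 prior degrees of freedom), with Benjamini-Hochberg adjustment over all probe sets. The fit was tested on simulated data. Members, roles, lists and tests were chosen with earlier results of these data known. Every member called in a response is named, and otherwise the 5 with the smallest p in each genotype comparison, and up to 3 called genes per direction of each other list. RefSeq sequences are of GRCm38.p6. Alternatives covered scaling, filters, variance models, thresholds, probe set choice and leaving out each array. Plots were made in Python 3.11.15 (matplotlib 3.10.9).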

Additional observations from a re-analysis of the deposited data

How the results depend on the processing

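Over 46 single values (the 13 members called in a response, in both responses, and the 5 with the smallest p in each genotype comparison and in the difference of the responses) under the alternatives that could be applied, 971 results kept their direction and their side of the threshold, 101 lost the call, 19 gained one and 1 changed sign. Only the values called in the main fit, 12 in WT and 5 in HDAC2-/- kidneys, could lose a call, so the 101 losses all fell on these. The rest of the 46 had no call to lose and so added to the 971. Members outside these 46 also gained calls. The change of sign was Col5a1 in HDAC2-/- kidneys, at 0.00 with its second probe set. Without empirical Bayes, 0 members rose in HDAC2-/- kidneys, 4 fell in WT kidneys, and 5 fell over both genotypes. With only the 2 groups compared in the fit, 2 fell in HDAC2-/- and 4 fell in WT kidneys. Array weights gave 7 falls in HDAC2-/- kidneys, and the second probe sets gave 2. Calls over all 34472 probe sets, in either direction, moved with the setting too. In HDAC2-/- kidneys they numbered 1691 in the main fit, 844 without empirical Bayes, 1219 with only the groups compared and 6356 with array weights. In WT kidneys they numbered 4730, 3267, 3970 and 6007 in the same order. At 2-fold or more with an unadjusted p under 0.05, 2 rose and 0 fell in HDAC2-/- kidneys, 2 rose and 2 fell in WT kidneys, and 2 rose and 0 fell over both genotypes. At an adjusted p under 0.1 and 1.5-fold, 4 fell over both genotypes. The counts under these 2 rules have no matching share of all probe sets. Leaving out 1 array at a time gave 0 to 5 rises and 0 to 2 falls in HDAC2-/- kidneys (0 of each without ischemic replicate 3), 3 to 6 rises and 1 to 12 falls in WT kidneys (1 fall without ischemic replicate 2, 12 without ischemic replicate 1), and 5 to 6 rises and 6 to 13 falls over both genotypes. With 1 array left out, calls over all probe sets ranged from 744 to 2848 in HDAC2-/- kidneys (817 without ischemic replicate 3). In WT kidneys they ranged from 2675 to 5418 (3647 without ischemic replicate 1 and 3270 without ischemic replicate 2). The cause of these shifts was not tested. In the genotype comparisons and the difference of the responses no member was called under any of these alternatives. With the replicate number as a block, Lox was no longer called in HDAC2-/- kidneys (adjusted p = 0.0505), Tnc (0.0336) and Col1a2 (0.0398) were added there, so that 2 members fell, and Col1a1 (0.0178) and Col6a2 (0.0339) were added in WT kidneys. Over both genotypes it added Col4a2 (0.0254), Lama5 (0.0454) and Nid2 (0.0425). Deviations from the group means of same-numbered arrays correlated at -0.37 to 0.44 (median 0.05, 8 of 18 pairs above 0.1). Those of differently numbered arrays correlated at -0.40 to 0.34 (median -0.02, 10 of 36 pairs above 0.1). Of 12 arrays, 5 correlated best with their own number. As the ranges overlap, these values do not decide whether the labels' replicate numbers pair the mice. Quantile normalisation ended the calls of Col8a1 in HDAC2-/- kidneys (adjusted p = 0.0647) and of Ogn and Fmod in WT kidneys (0.0528 and 0.0631). Without empirical Bayes those of Col8a1, Col12a1, Lamc1 and Lox ended in HDAC2-/- kidneys (0.0592 to 0.179) and those of Col1a2, Col15a1, Ogn, Fmod and Tnc in WT kidneys (0.0577 to 0.133). Leaving out probe sets with a mean under 5 added Tnc in HDAC2-/- and Col1a1, Col6a2 and Lox in WT kidneys (0.0417 to 0.0491). Vcan, with a mean of 4.87, was the 1 member under that level.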
